A study of Mus musculus with 24 samples.

Results

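Complex I, the NADH:ubiquinone oxidoreductase of the inner mitochondrial membrane, was followed through the mRNAs of its nuclear-encoded subunits in mouse plantaris, a fast hindlimb muscle. The subunits were taken by symbol: every protein-coding gene of the count table whose mouse symbol begins with Ndufa, Ndufb, Ndufc, Ndufs or Ndufv, leaving out the Ndufaf assembly factors. This gave 38 of the 47643 genes in the table, namely 15 Ndufa, 10 Ndufb, 2 Ndufc, 8 Ndufs and 3 Ndufv genes. Ndufb1 was not analysed here. All samples came from wild-type C57BL/6 mice, of which 11 samples were from animals kept in normal air and 13 from animals exposed to tobacco smoke for 16 weeks. The ages of the animals are not given in the sources used here. Nothing in the labels states that each sample is a separate animal, so p-values measure the spread between these samples, which may be technical.

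Complex I is an L-shaped enzyme. Its matrix arm takes electrons from NADH through a flavin and a chain of iron-sulphur clusters to ubiquinone, and its membrane arm couples this to the pumping of protons. The catalytic core is encoded partly in the nucleus and partly in mitochondrial DNA, and it is wrapped in accessory subunits that serve assembly and stability. In skeletal muscle the enzyme is richer in oxidative than in glycolytic fibres. Ndufs and Ndufv genes largely encode the matrix arm, Ndufb and Ndufc genes the membrane arm, and Ndufa genes contribute to both.

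Reads were made from the 3′ ends of transcripts, so a count follows the number of transcripts with little weight from their length. Libraries held 2515697 to 4528845 counts, and the members' counts in single libraries ran from 15 (Ndufs5) to 9163 (Ndufb9). Levels are given as CPM, the counts of a gene scaled to a common library total. Fold changes are smoke against air on the log2 scale, and the call threshold was an adjusted p of 0.05 (edgeR quasi-likelihood test, Benjamini-Hochberg adjustment over the 10159 genes tested). All 38 members passed the filter on low counts. The libraries air replicate 11 and smoke replicate 10 stood apart on the first principal component of the group-centred data, with scores of 39.07 and 28.71 against -17.74 to 17.18 for the other 22. Values without both are therefore given beside a number of results. The muscle label was checked against the fibre markers Acta1, Ckm, Tnnt3, Myh4 and Myh1, which summed to 109816 to 173403 CPM in air and 116744 to 146672 CPM under smoke.

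Promoter stretches of 3 members are printed as examples: Ndufa3 and Ndufv3 were called lower under smoke, and Ndufv2, a core subunit, carries the letters bound by the nuclear respiratory factor NRF1. They are the bases up to the annotated gene start that lie in no annotated exon, from RefSeq on GRCm38.p6, written 5′ to 3′ on the gene's strand (chr7:3617123-3617372 plus, chr17:31519981-31520114 plus and chr17:66101560-66101809 minus). Capitals mark matches to the letters of the TATA box (TATAAA) and of the Sp1 box (GGGCGG, on either strand). They also mark GCGC, any pair of bases and GCGC again (NRF1). The TATAAA match of Ndufa3 begins 166 bases before the gene start. The printed stretch of Ndufv3 has 134 bases, and those of Ndufa3 and Ndufv2 have 250.
Ndufa3: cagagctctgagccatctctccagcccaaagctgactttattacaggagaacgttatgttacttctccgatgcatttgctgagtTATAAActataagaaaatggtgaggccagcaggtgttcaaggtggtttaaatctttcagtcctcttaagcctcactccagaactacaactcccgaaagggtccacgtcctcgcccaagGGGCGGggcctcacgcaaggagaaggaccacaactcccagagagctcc
Ndufv3: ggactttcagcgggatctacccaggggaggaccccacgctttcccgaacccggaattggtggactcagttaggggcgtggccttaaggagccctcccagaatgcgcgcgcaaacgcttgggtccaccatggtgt
Ndufv2: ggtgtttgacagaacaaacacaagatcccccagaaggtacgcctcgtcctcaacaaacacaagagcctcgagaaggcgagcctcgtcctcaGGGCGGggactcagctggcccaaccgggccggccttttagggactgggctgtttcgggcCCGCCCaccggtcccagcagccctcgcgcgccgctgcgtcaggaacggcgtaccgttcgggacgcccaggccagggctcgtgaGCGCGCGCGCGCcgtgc
Of the 38 members, 33 had a RefSeq promoter entry by symbol. A member was counted once if any of its entries matched, whereas the share of all is over single promoter entries. In the 250 bases before the start, searched on both strands, the NRF1 letters stood in 8 of the 33 (24.2%), against 5.0% of all 32851 promoters in the table: Ndufa11, Ndufa5, Ndufa8, Ndufab1, Ndufb4, Ndufs5, Ndufs6 and Ndufv2. GGGCGG stood in 14 of 33 (42.4%, against 32.7% of all), and TATAAA in 4 (12.1%, against 12.4%). AAGGTCA, the letters of the oestrogen-related receptors, stood in 3 (9.1%, against 4.1%), and CCGGAAG of the ETS factors also in 3 (9.1%, against 6.9%). AAGATGGCG of YY1 stood in none, against 0.6% of all. The GGGCGG match of Ndufv3 lies further upstream than its printed stretch. The NRF1 and Sp1 letters can overlap each other, and each was counted on its own. The 8 members with the NRF1 letters had a median log2 fold change of -0.12 and none was called. The other 25 with an entry also had a median of -0.12, and 3 of them were called. These matches describe letters and not bound sites.

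Under smoke most complex I mRNAs had a negative fold change, and few of these passed the test. Of the 38 members, 4 were called lower (10.5%, where 1.19% of all genes tested were called lower) and 0 were called higher (0.728% of all genes tested). Over both directions, 1.92% of all genes tested were called. The median log2 fold change of the members was -0.12, beside 0.01 over all genes tested. The sign was negative for 35 of 38 members (92.1%), while 48.4% of all genes tested had a negative sign. At an unadjusted p under 0.05, 21 members were lower (55.3%, against 7.95% of all genes tested) and 0 higher (7.55% of all genes tested). These shares are not at equal sensitivity: the median spread fitted by edgeR was 9.76% for the members and 14.9% for all genes tested. No member had groups that did not overlap, a state reached by 0.0295% of all genes tested. The number called depended on the fit: without a filter on low counts only Ndufa3 was called (edgeR), while DESeq2 called 8 members. Leaving out 1 library at a time gave 2 to 6 calls (edgeR), with 2 without air replicate 3, 5 or 8 or smoke replicate 6. In these bulk samples, fewer cells of a type and less RNA per cell cannot be told apart.

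**Figure D1:**
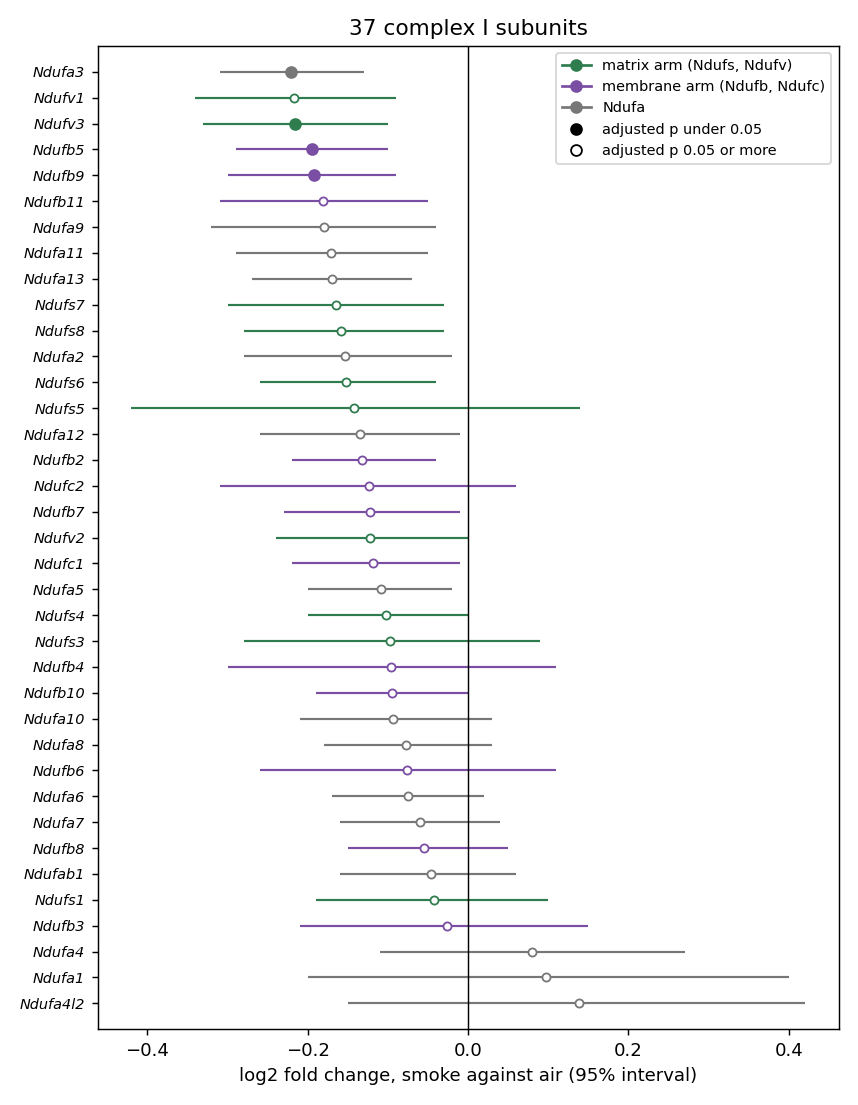
Log2 fold change (smoke against air) of 37 subunits, with the 95% interval of each, from the edgeR fit of all genes; colours mark the arm by gene prefix and filled points an adjusted p under 0.05. The values lie between -0.22 and 0.14, 34 of 37 are negative, and the 4 filled points are Ndufa3, Ndufv3, Ndufb5 and Ndufb9.

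The summed level of the 38 mRNAs was 18426 ± 764 CPM in air (SD, n = 11; range 17627 to 20001) and 16860.3 ± 696 CPM under smoke (SD, n = 13; range 15807 to 18198). This is a difference of -8.49%, or 1.84% of the TMM-scaled library size in air and 1.69% under smoke. Of the 13 smoke samples, 11 lay below the lowest air sample and all 13 lay below the air mean, while 6 of 11 air samples lay below the highest smoke sample, so the groups overlapped. On this TMM-scaled level, into which each library's scaling factor enters, air replicate 11 and smoke replicate 10 were the highest of their groups. Without both, the sums were 18268 ± 587 CPM in air (SD, n = 10) and 16749 ± 593 CPM under smoke (SD, n = 12), a difference of -8.32%, and 1 of 10 air samples lay below the highest smoke sample. The shift of each gene was small, and the largest in proportion, that of Ndufa3, was -14.2% of its air level.

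The NADH-binding tip of the matrix arm, the N module, oxidises NADH and starts the electron chain. Its 10 members were all negative in sign, with a median log2 fold change of -0.13. Of these, 1 was called (10.0%, against 1.19% of all genes tested called lower). The called member was Ndufv3, an accessory subunit of the tip. Ndufv3 (ENSMUSG00000024038; GRCm38 chromosome 17, 31520115 to 31531331, plus strand) had a lowest value of 187, a median of 224 and a highest of 274 CPM in air, and 169.5, 198 and 214 CPM under smoke. Its groups overlapped, but all 13 smoke samples lay below the air mean, and 8 of 11 air samples lay above the highest smoke sample. The means were 227.5 ± 26.6 CPM (SD, n = 11) and 196 ± 12.2 CPM (SD, n = 13), with a log2 fold change of -0.22 (SE 0.0567, adjusted p = 0.0356) by edgeR with Benjamini-Hochberg adjustment. Without air replicate 11 and smoke replicate 10 the value was -0.20 and the adjusted p from edgeR 0.0554, so it was then not called. The call was also lost with no filter on low counts (edgeR adjusted p = 0.0591), with offsets corrected for GC content (edgeR adjusted p = 0.115) and when any 1 of air replicates 2, 3, 5 and 8 or smoke replicates 3, 6, 7 and 11 was left out.

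Ndufv1, the core subunit that binds the flavin and NADH, had as large a fold change as Ndufv3 but was not called. It showed a lowest value of 457, a median of 484 and a highest of 685 CPM in air and 379, 433 and 517 CPM under smoke, a log2 fold change of -0.22 (SE 0.0616, adjusted p = 0.0558) in the edgeR fit. Air replicate 11 was its highest sample at 685 CPM, where the other 10 air samples ran from 457 to 582, and 9 of 13 smoke samples lay below every air sample. With both libraries left out the log2 fold change was -0.18 (edgeR adjusted p = 0.0605). DESeq2 called it (adjusted p = 0.0262), as did edgeR with the first principal component as a covariate (adjusted p = 0.0135) and without air replicate 10 or smoke replicate 10 or 13. Ndufv2, which carries an iron-sulphur cluster of the tip, had a lowest value of 212, a median of 260.0 and a highest of 304 CPM in air and 217.5, 245.6 and 302.5 CPM under smoke, with a log2 fold change of -0.12 (adjusted p = 0.287) in the edgeR fit. The groups overlapped, although the air mean exceeded 12 of 13 smoke samples. The lowest air value was that of air replicate 11, and 9 of 13 smoke samples lay below the lowest of the other 10 air samples. Without both libraries the log2 fold change of Ndufv2 was -0.14 (edgeR adjusted p = 0.172). Ndufs1, the core subunit with the most iron-sulphur clusters of the tip, had a lowest value of 90, a median of 134 and a highest of 160.0 CPM in air and 106, 131 and 143 CPM under smoke, and a log2 fold change of -0.04 (adjusted p = 0.838). Its smoke range lay wholly inside its air range, whose lowest sample was air replicate 11, and without both libraries the log2 fold change was -0.07 (edgeR adjusted p = 0.624). With 1 library left out that value ran from -0.09 to -0.02.

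The accessory subunits of the tip were spread over the same span. Ndufs6, a zinc-binding subunit, had a log2 fold change of -0.15 and Ndufs4, whose loss in mice gives an encephalopathy like Leigh syndrome, one of -0.10. In both, 12 of 13 smoke samples were lower than the mean in air, and neither passed the edgeR adjusted threshold (adjusted p = 0.139 and 0.283). Ndufa2, with a thioredoxin-like fold, had -0.15, Ndufa12 -0.14, Ndufa6 of the LYR family -0.07 and Ndufa7 -0.06. None of these 4 was called.

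The Q module passes electrons on to ubiquinone. All 6 of its members were negative in sign with a median of -0.14, and none was called by edgeR without covariates on all 24 samples. DESeq2 called Ndufa5 (adjusted p = 0.0347), and edgeR with the first principal component as a covariate called Ndufa9 (adjusted p = 0.0473). Ndufs7 is a core subunit that carries the last iron-sulphur cluster before ubiquinone. It had a lowest value of 339, a median of 413 and a highest of 525 CPM in air and 312, 353 and 436 CPM under smoke. Smoke values overlapped the air values, and the air mean exceeded 10 of 13 smoke samples. The log2 fold change was -0.16 (adjusted p = 0.177) by edgeR with Benjamini-Hochberg adjustment.

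Ndufs8, a carrier of iron-sulphur clusters, had a lowest value of 145, a median of 163 and a highest of 195 CPM in air and 131, 145 and 184 CPM under smoke. Of its smoke samples, 7 of 13 lay below every air sample, and the log2 fold change was -0.16 (adjusted p = 0.17) in the edgeR fit. Ndufs3, a core subunit without a cofactor, had a lowest value of 62, a median of 92.5 and a highest of 111 CPM in air and 57.1, 85.5 and 104 CPM under smoke, with a log2 fold change of -0.10 (adjusted p = 0.67) in the edgeR fit and -0.14 to -0.06 with 1 library left out, the latter without air replicate 1 or smoke replicate 10. Its groups overlapped almost fully, and air replicate 11 and smoke replicate 10 were each the lowest of their group. Ndufa5 was among the most abundant members, with a lowest value of 1152, a median of 1222 and a highest of 1345 CPM in air and 1059, 1134 and 1259.9 CPM under smoke. It had the smallest spread fitted by edgeR of all 38, and 7 of 13 smoke samples lay below every air sample at a log2 fold change of -0.11 (adjusted p = 0.169) in the edgeR fit. Ndufa9, an NADPH-binding subunit at the junction of the arms, had -0.18 (adjusted p = 0.172) in the edgeR fit, and -0.14 (edgeR adjusted p = 0.11) without both libraries that stood apart.

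Taken as a set, the 7 nuclear core subunits were all negative in sign, with a median log2 fold change of -0.12. At an unadjusted edgeR p under 0.05, 5 of 7 were lower (71.4%, against 7.95% of all genes tested). By edgeR without covariates on all 24 samples, 0 were called, where 1.19% of all genes tested were called lower. Ndufv1 was called in the other fits named above. The 28 accessory subunits, leaving out Ndufa4, Ndufa4l2 and Ndufab1, had the same median of -0.12, with 27 negative in sign and 4 called by that edgeR fit (14.3%). The mean log2 CPM of core subunits minus that of accessory subunits was -0.53 ± 0.0465 in air (SD, n = 11) and -0.54 ± 0.0344 under smoke (SD, n = 13). The shift of -0.0134 was under its SE of 0.017, and no test was run on it.

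The proximal part of the membrane arm sits at its junction with the matrix arm. Of its 9 members, 8 were negative in sign, 1 was called (11.1%, against 1.19% of all genes tested called lower), and the median was -0.12. The called member, Ndufa3, is a small membrane-spanning accessory subunit, and it had the lowest adjusted p of all 38. Ndufa3 (ENSMUSG00000035674; GRCm38 chromosome 7, 3617373 to 3620327, plus strand) had a lowest value of 382, a median of 441.5 and a highest of 481 CPM in air and 348, 371 and 405 CPM under smoke. All but 1 of the 11 air samples lay above the highest smoke sample, and all 13 smoke samples lay below the air mean. Its means were 436 ± 28.3 CPM (SD, n = 11) and 374 ± 17.3 CPM (SD, n = 13), a log2 fold change of -0.22 (SE 0.044, adjusted p = 0.00464) by edgeR with Benjamini-Hochberg adjustment, with a 95% interval of -0.31 to -0.13. Ndufa3 overlaps Tfpt, which runs the other way, and whether counting used the strand is not given in the sources used here, so reads of the pair cannot be told apart.

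Ndufa13, also known as GRIM-19, was just outside the threshold. It had a lowest value of 920.1, a median of 1009.9 and a highest of 1224 CPM in air and 853, 882 and 1017 CPM under smoke, and all 13 smoke samples lay below the air mean. Its log2 fold change was -0.17 (SE 0.0476, adjusted p = 0.0521) in the edgeR fit, and with both libraries left out it was -0.16 with an edgeR adjusted p of 0.0401. DESeq2 (adjusted p = 0.00998) and limma voom (adjusted p = 0.0407) called it. Ndufa11, Ndufc1 and Ndufc2, all membrane-spanning, had log2 fold changes of -0.17, -0.12 and -0.12. Ndufa8, with a twin cysteine motif, had -0.08, and Ndufa10 had -0.09. Ndufs5 carries an Ndufs name but sits on the intermembrane face of the membrane arm. It was among the lowest members, with a lowest value of 4.72, a median of 12.9 and a highest of 17.3 CPM in air and 8.42, 11.3 and 13.5 CPM under smoke, and a log2 fold change of -0.14 (adjusted p = 0.68) in the edgeR fit. The smoke values lay inside the air range, and without both libraries the log2 fold change was -0.20 (edgeR adjusted p = 0.431). With 1 library left out it ran from -0.23 to -0.08.

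Ndufa1, an X-linked accessory subunit needed for assembly, was the exception in sign in the proximal part. It had a lowest value of 106, a median of 310.4 and a highest of 442 CPM in air and 181, 329.5 and 418.5 CPM under smoke, and 9 of 13 smoke samples lay above the air mean. Its log2 fold change of 0.10 (SE 0.144, adjusted p = 0.813) in the edgeR fit had a 95% interval of -0.20 to 0.40. The lowest sample of each group was air replicate 11 or smoke replicate 10, at 106 and 181 CPM. The other 10 air samples ran from 215 to 442 CPM. Without both libraries the log2 fold change was 0.06 (edgeR adjusted p = 0.872), and without air replicate 11 alone it was 0.00 (edgeR adjusted p = 0.997).

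The distal part of the membrane arm surrounds the outer proton-pumping subunits and is built from Ndufb accessory subunits. All 10 Ndufb members were negative in sign, 2 were called (20.0%, against 1.19% of all genes tested called lower), and the median was -0.11. Ndufb5 (ENSMUSG00000027673; GRCm38 chromosome 3, 32736990 to 32751566, plus strand) had a lowest value of 1126, a median of 1220.5 and a highest of 1321 CPM in air and 948, 1060.5 and 1281.5 CPM under smoke. Of the 13 smoke samples, 11 lay below every air sample, and the highest smoke value was that of smoke replicate 10. The means were 1221 ± 61.3 CPM (SD, n = 11) and 1066 ± 88.4 CPM (SD, n = 13), a log2 fold change of -0.19 (SE 0.0469, adjusted p = 0.0214) by edgeR with Benjamini-Hochberg adjustment. The call was lost with no filter on low counts (edgeR adjusted p = 0.0748). Ndufb5 overlaps Mrpl47 on the opposite strand.

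Ndufb9, a subunit of the LYR family, was the most abundant member. Ndufb9 (ENSMUSG00000022354; GRCm38 chromosome 15, 58933756 to 58939488, plus strand) had a lowest value of 1899, a median of 2121 and a highest of 2639 CPM in air and 1696, 1900.0 and 2181 CPM under smoke. All 13 smoke samples lay below the air mean, while 5 of 11 air samples lay above the highest smoke sample. The means were 2191 ± 194 CPM (SD, n = 11) and 1917.5 ± 134 CPM (SD, n = 13), and the log2 fold change was -0.19 (SE 0.0496, adjusted p = 0.032) by edgeR with Benjamini-Hochberg adjustment. The predicted gene Gm49356 overlaps it on the same strand. With air replicate 11, its highest air sample, and smoke replicate 10 left out, the value was -0.18 and the edgeR adjusted p 0.0216. Its call was lost with no filter on low counts (edgeR adjusted p = 0.0978) and, with 1 library left out, without air replicate 3, 5 or 8 or smoke replicate 6 (edgeR adjusted p = 0.0573 to 0.0626).

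The other Ndufb members were not called in the edgeR fit, although DESeq2 called Ndufb2 (adjusted p = 0.0251). Ndufb8, the next most abundant, is often used as a protein marker of assembled complex I. It had a lowest value of 1149, a median of 1316.5 and a highest of 1452 CPM in air and 1135.5, 1272 and 1369 CPM under smoke, with a log2 fold change of -0.05 (adjusted p = 0.65) in the edgeR fit and near-complete overlap of the groups. Ndufb2 had its 13 smoke samples all under the mean in air and a log2 fold change of -0.13 (adjusted p = 0.111) in the edgeR fit. Ndufb11, X-linked and mutated in a human heart and skin disorder, had -0.18, and Ndufb7 and Ndufb10, with cysteine motifs of the intermembrane space, had -0.12 and -0.09. Ndufb4, at 17.1 ± 2.79 CPM in air (SD, n = 11), had -0.10 (-0.13 to -0.06 with 1 library left out, the latter without air replicate 9), Ndufb6 -0.08 and Ndufb3 -0.03. Air replicate 11 was the lowest air sample for Ndufb6, Ndufb3 and Ndufc2, and without both libraries their log2 fold changes were -0.11, -0.06 and -0.16, none called.

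**Figure D2:**
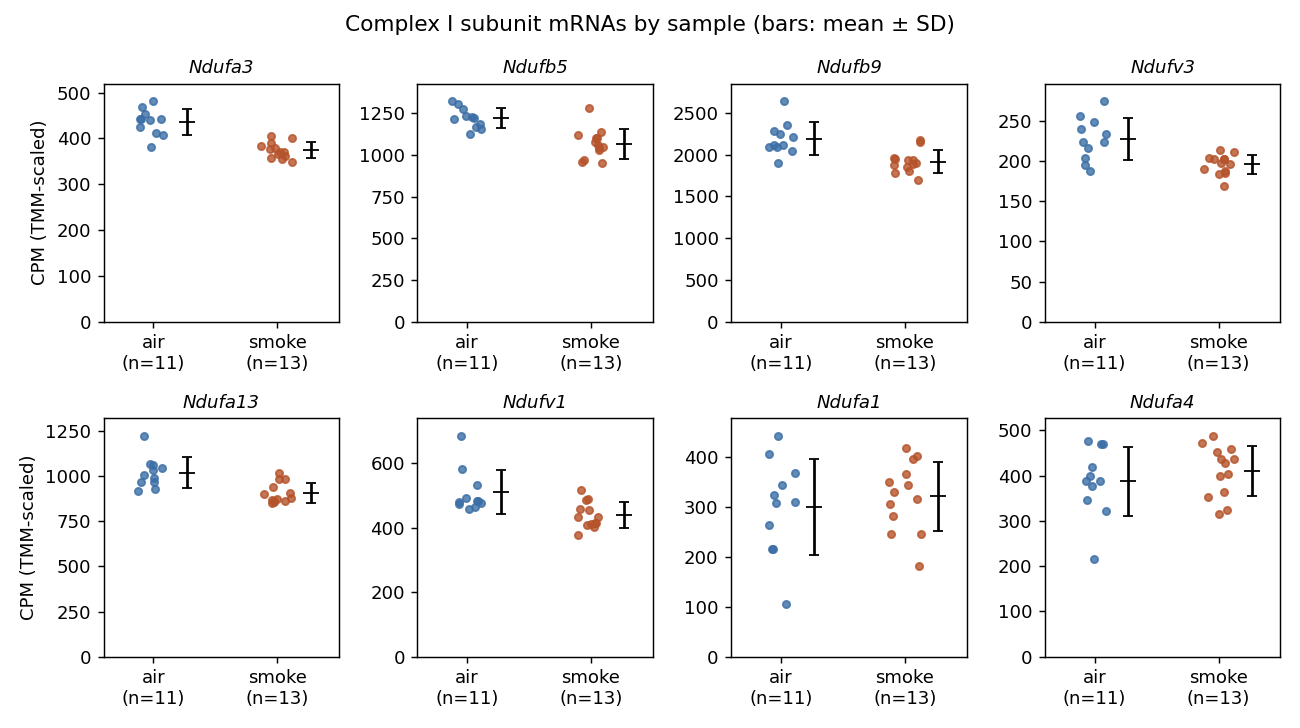
CPM of the 4 called subunits, of Ndufa13 and Ndufv1 just outside the threshold, and of Ndufa1 and Ndufa4 with a positive sign, in each of the 11 air and 13 smoke samples, with the mean and SD of each group; each vertical axis starts at 0. For Ndufa3 all 13 smoke samples lie below the air mean and 10 of 11 air samples above the highest smoke sample.

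Some genes of the family belong elsewhere or in both arms. Ndufab1, the mitochondrial acyl carrier protein, is bound in both arms and also serves fatty acid synthesis. It had a lowest value of 138, a median of 155 and a highest of 174 CPM in air and 126, 151 and 167.5 CPM under smoke, with overlapping groups. Its log2 fold change was -0.05 (adjusted p = 0.743) in the edgeR fit and -0.06 to -0.03 with 1 library left out. Ndufa4, now counted as a subunit of cytochrome c oxidase, had a lowest value of 215, a median of 387 and a highest of 475 CPM in air and 314.5, 428 and 487 CPM under smoke. Its smoke range lay close to its air range, apart from air replicate 11 at 215 CPM, and its log2 fold change was 0.08 (adjusted p = 0.735) in the edgeR fit. That value rests on air replicate 11: without it the log2 fold change was 0.01 (edgeR adjusted p = 0.963), and without both libraries 0.04. Ndufa4l2, its hypoxia-induced paralog, was the lowest member, with a lowest value of 7, a median of 9.71 and a highest of 11.6 CPM in air and 7.09, 9.57 and 15 CPM under smoke, and a log2 fold change of 0.14 (adjusted p = 0.699) in the edgeR fit. Without smoke replicate 13, its highest sample, that value was 0.08 (edgeR adjusted p = 0.843). With Ndufa1, Ndufa4 and Ndufa4l2 were the members with a positive sign, and none was called.

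The arms were then compared by gene prefix, 11 matrix-arm (Ndufs, Ndufv) against 12 membrane-arm (Ndufb, Ndufc) members. All 11 matrix-arm members and all 12 membrane-arm members were negative in sign. In the matrix arm 1 was called (9.09%, against 1.19% of all genes tested called lower), 8 reached an unadjusted p under 0.05 (72.7%, against 7.95% of all genes tested lower), and the median log2 fold change was -0.14. In the membrane arm 2 were called (16.7%), 6 of 12 reached that p, and the median was -0.12. The 15 Ndufa members, which serve both arms, had 1 called, 12 negative and a median of -0.09.

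Sample by sample, both arms were lower under smoke. The mean log2 CPM of the matrix arm was 7.64 ± 0.0628 in air (SD, n = 11; range 7.52 to 7.72) and 7.51 ± 0.0501 under smoke (SD, n = 13; range 7.44 to 7.58). That of the membrane arm was 8.64 ± 0.0674 in air (range 8.52 to 8.71) and 8.53 ± 0.0486 under smoke (range 8.40 to 8.59). All 13 smoke samples lay below the air mean in each arm, and 7 and 5 of them, in the matrix and membrane arm, lay below every air sample. The matrix arm minus the membrane arm, a ratio within each library that its scaling does not touch, was -0.996 ± 0.04 in air and -1.01 ± 0.044 under smoke, with a range of -1.06 to -0.91 in both groups. The difference between the groups was -0.0171 with an SE of 0.0171, so it was no larger than its error, and no test was run on it. Without air replicate 11 and smoke replicate 10 it was -0.0119 (SE 0.0183).

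**Figure D3:**
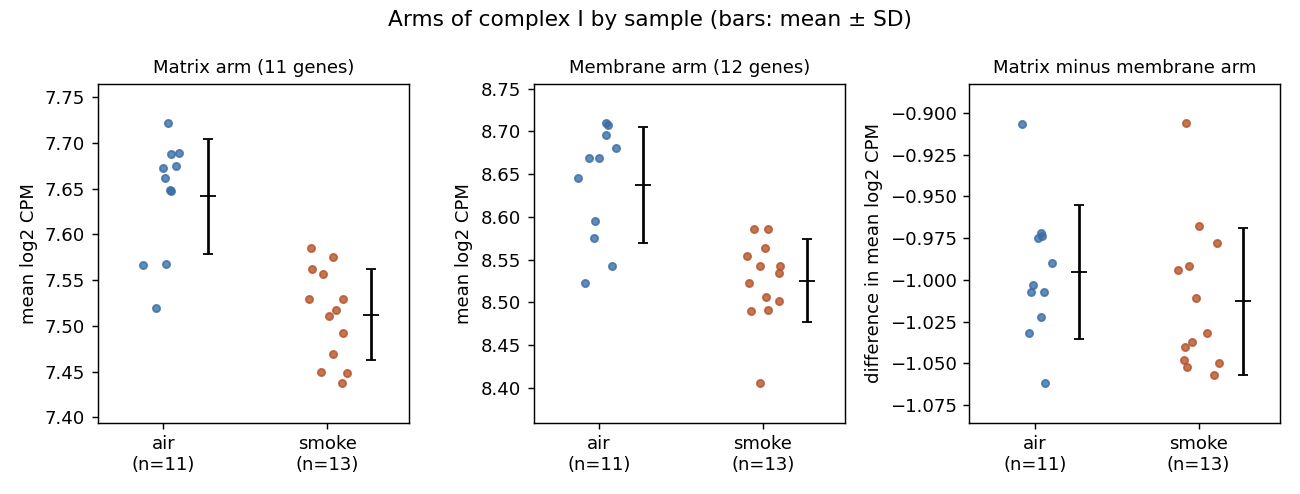
Mean log2 CPM of the 11 matrix-arm and 12 membrane-arm subunits in each sample, and the difference between the arms, for 11 air and 13 smoke samples. Both arms sit lower under smoke, by 0.13 and 0.11, while the difference between the arms spans -1.06 to -0.91 in either group.

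The prefix places Ndufs5 in the matrix arm and leaves the Ndufa members in neither, so the arms were also drawn from the structure, with Ndufs5 in the membrane arm and the Ndufa members in the arm they occupy. By structure the matrix arm minus the membrane arm was -0.04 ± 0.0921 in air (SD, n = 11) and -0.06 ± 0.045 under smoke (SD, n = 13). Air values ran from -0.12 to 0.21 (median -0.06). Smoke values ran from -0.12 to 0.03 (median -0.07). The gap in level between the arms by prefix was thus close to 0 by structure. The shift between the groups was -0.0232 (SE 0.0304), again within its error. The structural modules had medians of -0.13 (N), -0.14 (Q), -0.12 (proximal) and -0.11 (distal).

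Levels of the members spanned a wide range, although the subunits enter the enzyme in single copies apart from the acyl carrier protein. In air, 5 members exceeded 1000 CPM and 5 were under 100 CPM. The highest means were Ndufb9 at 2191 ± 194 CPM, Ndufb8 at 1309 ± 109 CPM and Ndufa5 at 1244 ± 64 CPM (SD, n = 11 each), and the SD ranges of the last 2 overlap. The lowest were Ndufa4l2 at 9.27 ± 1.65 CPM, Ndufs5 at 12.3 ± 3.63 CPM and Ndufb4 at 17.1 ± 2.79 CPM. Counts at 3′ ends also depend on which transcript end is annotated and on near-identical copies. Ndufs5 had 978 counts over all libraries and its processed pseudogene BC002163, identical over 186 bases of the transcript end, had 104, so its level is uncertain. The same holds for Ndufs3, with 7235 counts beside 489 for the pseudogene Gm12251. Ndufb6, at 17847 counts, shares its transcript end with Smim27 on the opposite strand, at 2647 counts. Ndufs6, Ndufb11, Ndufb2 and Ndufb8 had copies or partners with 2 to 269 counts, and Ndufb3 a pseudogene that was not analysed here. In all, 20 of the 38 members overlap another annotated gene, 16 of them a gene on the opposite strand.

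The median member varied less between samples of a group than the median gene. Their biological coefficient of variation, the spread that edgeR fits beyond counting error, had a median of 9.76%, against 14.9% over all genes tested. It ran from 7.35% for Ndufa5 to 24.8% for Ndufa1. For the more variable members, a library that stood apart was often the extreme sample. Air replicate 11 was the lowest air sample for 11 members and the highest for 13, out of 38. Its SD of the members' deviations from the group mean was 0.467 (log2), where the other air libraries had 0.0999 to 0.21 and smoke replicate 10 had 0.268. Against the mean of the other air samples, Ndufa1 in air replicate 11 differed by -1.60 on the log2 scale, Ndufs5 by -1.47, Ndufb3 by -0.93, Ndufa4 by -0.91, Ndufc2 by -0.81 and Ndufb6 by -0.73. In the other direction Ndufa9 was higher by 0.61, Ndufa2 by 0.49, Ndufv1 by 0.48 and Ndufb11 by 0.45. Base composition was set beside these deviations: across the 38 members, the GC content of the last 300 transcript bases and the deviation in air replicate 11 had r = 0.50, and across all genes r = 0.37. In the other 23 libraries r ran from -0.55 to 0.43 across the members and from -0.23 to 0.21 across all genes. Air replicate 11 thus had the highest r of the 24 libraries on both scales, while smoke replicate 9 had a larger one of the opposite sign across the members. GC content and fold change had r = -0.25 across the 38 members and -0.14 across 10144 genes. These are correlations across genes that share libraries, and genes are not independent replicates. With offsets corrected for GC content, an alternative added after the data were seen, Ndufa3, Ndufb5 and Ndufb9 were called, and Ndufv3, at -0.16, was not. The part of base composition in the fold changes was not tested.

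**Figure D4:**
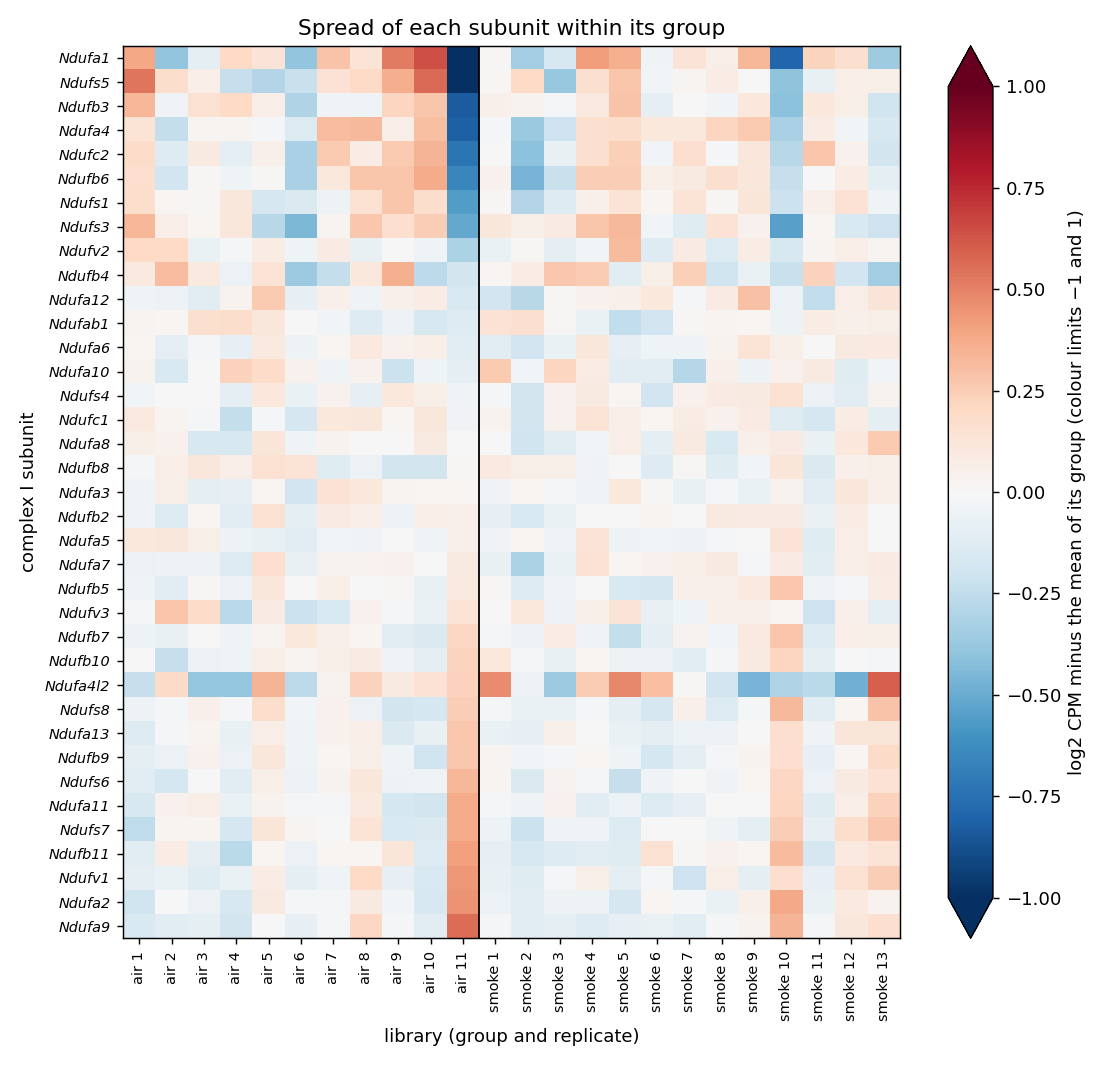
Colours give the deviation of each of 37 subunits (vertical axis) from its group mean in log2 CPM, red above and blue below, in each of the 24 libraries (horizontal axis, air before smoke), with subunits ordered by their deviation in air replicate 11. Air replicate 11 has the widest spread, with an SD of 0.467 over all 38 members, and smoke replicate 10 follows with 0.268.

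Most mRNAs of the other respiratory complexes also had a negative sign. Over all genes tested, 48.4% had a negative sign and 1.19% were called lower, beside 11.1% called lower in complex III, 23.1% in complex IV and 14.3% in ATP synthase. The 6 tested complex I mRNAs of mitochondrial DNA had 5 negative signs, 0 called and a median of -0.10, and mt-Nd4l was not tested. The most abundant of them, mt-Nd1, was at 5774.5 ± 749 CPM in air and 5858 ± 512 CPM under smoke (log2 fold change 0.02). At 4031 CPM in air, mt-Nd4 had -0.03. The most negative value was that of mt-Nd3 (-0.46, SE 0.342), at 10.6 CPM in air. The mRNAs of this list summed to 11562 ± 1511 CPM in air (SD, n = 11) and 11450.5 ± 1003 CPM under smoke (SD, n = 13). Of 18 tested assembly factors, which build the enzyme without remaining in it, 13 were negative in sign, 0 were called and the median was -0.06. Complex II had 3 of 4 negative, 0 called and a median of -0.11. Complex III had 9 of 9 negative and a median of -0.15, and 1 was called, Uqcrq at -0.22 (edgeR adjusted p = 0.00635). Complex IV had 12 of 13 negative and a median of -0.10, with Cox7a1 (-0.26), Cox6b1 (-0.21) and Cox8b (-0.19) called lower. ATP synthase had 14 of 14 negative and a median of -0.13, with Atp5g1 (-0.21) and Atp5j2 (-0.18) called lower. Whether complex I differs from these complexes was not tested.

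**Figure D5:**
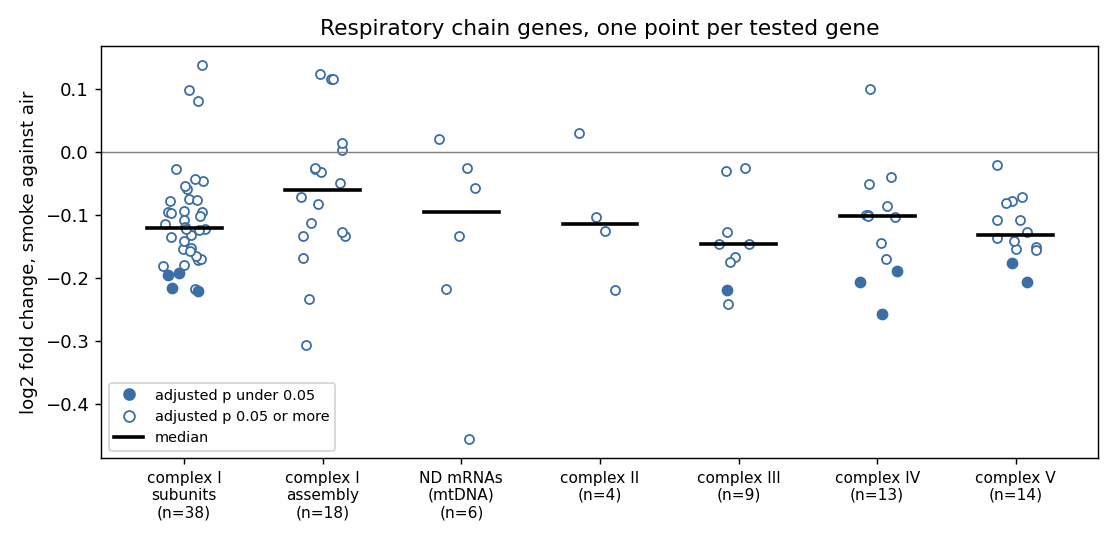
Log2 fold change (smoke against air) of every tested gene in each respiratory chain list, with 1 point a gene, filled where the adjusted p was under 0.05, and a bar at the median. The medians lie between -0.15 (complex III) and -0.06 (assembly factors), with complex I at -0.12.

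Of 8 tested regulators of mitochondrial genes, 5 were negative in sign and 0 were called, with a median of -0.08. Ppargc1a, the coactivator that drives mitochondrial biogenesis, had a log2 fold change of -0.21 (adjusted p = 0.222 by edgeR), and the oestrogen-related receptor Esrrb -0.39 (edgeR adjusted p = 0.078). The positive values were those of Esrrg (0.16), Ppargc1b (0.06) and Nrf1 (0.05, edgeR adjusted p = 0.928), the factor of the promoter letters above.

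Markers of other fibre and cell types were summed in the same libraries. Oxidative and slow fibre markers summed to 4564 ± 584.5 CPM in air (range 3568 to 5601) and 3806 ± 597 CPM under smoke (range 2911 to 5013). None of the 8 tested was called, 4 were negative and 4 positive in sign, and their median log2 fold change was 0.01. At an unadjusted p under 0.05, 3 of 8 were lower (37.5%, against 7.95% of all genes tested) and 0 higher (7.55% of all genes tested): Myh2, Myl3 (-0.29, at 336 CPM in air) and Myl2 (-0.46, at 106 CPM in air). The largest positive values were those of Tnnc1 (0.59, SE 0.371) and Tnni1 (0.43, SE 0.326), at 4.27 and 3.94 CPM in air. Myh2, the myosin of fast oxidative fibres, made up most of the sum and had a log2 fold change of -0.27 (adjusted p = 0.0627 by edgeR). Myh4, the myosin of fast glycolytic fibres, was at 39487 ± 6366.5 CPM in air (SD, n = 11) and 44099 ± 4079.5 CPM under smoke (SD, n = 13), a log2 fold change of 0.16 (adjusted p = 0.228 by edgeR). Red cell markers summed to 486 to 1444 CPM in air and 369 to 883 under smoke, with 3 of 5 called lower. Schwann cell markers summed to 118 to 274 CPM in air and 176 to 852 under smoke, with 3 of 5 called higher. Endothelial markers summed to 295 to 386 CPM in air and 296 to 347 under smoke, with Eng called lower out of 7. Adipocyte markers summed to 86.3 to 313 CPM in air and 97.2 to 269.9 under smoke, fibroblast markers to 209 to 316 and 191 to 313, macrophage markers to 32.1 to 58.4 and 35.3 to 67.4, and satellite cell markers to 1.57 to 6.37 and 2.44 to 7.21, with 0 called in each. Ucp1, the marker of brown fat, was at 0 in every air sample and at most 0.319 CPM under smoke. The part of these shifts in the complex I values was not tested.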

How the data were processed

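Plantaris RNA was read from its 3′ ends with the Lexogen QuantSeq forward kit, per the labels' protocols. The authors deposited raw counts per Ensembl gene ID. The submitters' processing notes name STAR, DESeq2 and mm9, without roles. The counting tool, strand use and molecular identifiers are not given in the sources used here. Header sheet positions and groups cannot be told apart.

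Symbols and GRCm38 positions came from GENCODE M21, chosen here, which held 47224 of 47643 IDs (99.1%). These positions are not those of mm9. Promoters came from RefSeq (GRCm38.p6).

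Counts were fitted with edgeR 4.0.16 in R 4.3.3 (filterByExpr with a minimum count of 10, TMM scaling, quasi-likelihood F-test, Benjamini-Hochberg adjustment over 10159 genes, 24 samples, no covariates). SEs came from the F statistic and 95% intervals from 22 degrees of freedom. Arm values are mean log2 CPM with a prior count of 2. The procedure was tested on simulated data. Totals were 2515697 to 4528845 counts per library, where 3 counts correspond to 0.662 to 1.19 CPM, for counting error only. No pair of libraries in a group agreed within sampling noise (chi-square per gene 2.52 to 18.5 over 133 pairs).

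The members and lists were chosen with earlier results of these data known. Named members were those called, the core subunits, the extremes of fold change and of level, and members that share reads or sit elsewhere; the remaining members were added to account for all. The values of 1 member are not reported here; it stays in the counts, sums and medians. Alternatives were other scalings, no filter, DESeq2 1.42.0, limma voom (limma 3.58.1), a replicate block, other arm definitions, each library left out, and, chosen after seeing the data, the first principal component as a covariate, GC-corrected offsets, and both libraries that stood apart left out.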

Additional observations from a re-analysis of the deposited data

How the results depend on the processing

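The number of members called lower was 4, and it was 1 with no filter on low counts, 1 with the replicate block, 8 with DESeq2 and 9 with the first principal component as a covariate (added after seeing the data). Over all genes, 195 were called, with 329 by DESeq2 and 443 with that covariate. Leaving out each library in turn gave 2 to 6 members called lower, 0 called higher and 141 to 254 genes called over all. It gave medians of -0.13 to -0.11 for the members, -0.16 to -0.12 for the matrix arm and -0.13 to -0.10 for the membrane arm, and a difference between the arms of -0.03 to -0.01. With GC-corrected offsets the medians were -0.11 for the matrix arm and -0.12 for the membrane arm, against -0.14 and -0.12 in the main fit, so their order was reversed. The count of 2 came without air replicate 3, 5 or 8 or smoke replicate 6, and that of 6 without smoke replicate 10 or 13. No median or fold change of a named member that was called changed sign in these fits.

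Ndufa3 was called in every fit run. Ndufb5 lost its call with no filter (edgeR adjusted p = 0.0748) and with the block (0.0738), and Ndufb9 with both (0.0978 and 0.0815). Ndufv3 lost its call with no filter (0.0591), with the block (0.0962), without both libraries that stood apart (0.0554) and with GC-corrected offsets (0.115). Without both libraries Ndufa13 was called (0.0401), so the count was again 4. With 1 library left out, Ndufb9 was not called without air replicate 3, 5 or 8 or smoke replicate 6. Ndufv3 was not called without air replicate 2, 3, 5 or 8 or smoke replicate 3, 6, 7 or 11. Ndufa13 was called without air replicate 1, 4 or 9 or smoke replicate 10, 12 or 13, and Ndufv1 without air replicate 10 or smoke replicate 10 or 13. DESeq2 added Ndufa13 (adjusted p = 0.00998), Ndufb2 (0.0251), Ndufv1 (0.0262) and Ndufa5 (0.0347), and the covariate added Ndufa13 (edgeR adjusted p = 0.0133), Ndufv1 (0.0135), Ndufa11 (0.0192), Ndufb11 (0.041) and Ndufa9 (0.0473). Ndufa13 was also called by limma voom (0.0407) and without the 10 most abundant genes (edgeR, 0.0472). The cause of these changes was not tested. Samples with the same replicate number were not alike: over 11 pairs the mean correlation of deviations was -0.00592 (range -0.275 to 0.14), and 2 pairs correlated best with their own number. Such correlations cannot show whether samples of the same number shared a batch with a small effect. Depth limits the lowest members, Ndufa4l2, Ndufs5 and Ndufb4, at 15 to 89 counts per library.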
